A study of Mus musculus with 6 samples.

Results

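Endocytic receptors of the LDL receptor family, the scavenger receptors that share their ligands, and the proteins that carry and sort them were followed in mouse pulmonary microvascular endothelial cells. The set held 10 genes, Cubn, Lrp1, Lrp2, Lrp8, Vldlr, Scarb1, Stab1, Stab2, Dab2 and Lrpap1, taken by gene symbol from the 55232 features of the deposited table, and each symbol matched 1 feature. Sequenced RNA came from endothelial cells, described in the labels as a cell line with no genotype or treatment of their own, which had been kept in the lower chamber of a co-culture for 12 h. The 3 control samples faced untreated TCMK-1, a line of tubular epithelium from mouse kidney. The 3 repletion samples faced TCMK-1 whose ATP had been depleted and then restored. The groups thus differ in what the tubular cells above them had undergone, in a study whose title concerns the uptake of HMGB1 by pulmonary endothelium.

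LDL receptor family proteins bind many unrelated ligands outside the cell, enter through clathrin-coated pits and release their cargo in endosomes. In the secretory pathway the chaperone RAP, the product of Lrpap1, keeps the newly made receptors from binding ligand too early, and at the surface adaptors such as Dab2 link their tails to clathrin. Scavenger receptors such as SR-BI and the stabilins take up modified lipoproteins and other altered or spent molecules, and endothelial cells of several vascular beds use them to clear or transport such cargo.

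The libraries held 15582349 to 17817618 counts. Features with any count numbered 17899, 19185 and 18936 in control replicates 1, 2 and 3 and 22130, 18835 and 20532 in repletion, which bears on genes with few counts. Endothelial markers were abundant: 12 of 13 were tested, while Cldn5 had at most 3 counts in any library. The summed level of the 13 was 2462 to 2754 CPM (counts scaled to a common library size) in control and 2661 to 3114 in repletion. Of the 12 tested, 5 rose and 2 fell by the test given below, which called 39.7% of all tested features. Of 19 kidney tubular markers other than the receptors themselves, 12 had at most 3 counts in every library, and Slc34a1, Hnf4a, Epcam, Krt18 and Umod had 0 throughout. Lcn2, Aqp1, Pax2, Pax8 and Krt19 of the same list were high enough to be tested. Whether replicates were grown as separate cultures is not given in the labels, and p-values therefore describe the spread among these 6 samples, part or all of which may be technical. Bulk RNA was measured, so fewer cells of a type and less RNA per cell cannot be told apart.

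Of the 10 genes, 2 rose in the repletion group, 2 fell, 4 did not pass and 2 were too low to be tested. Cubn, the gene of the peripheral membrane receptor cubilin, rose 3.93-fold, and Lrp1, the gene of the large multiligand receptor LRP1, rose 1.35-fold. Lrpap1, the gene of the chaperone RAP, was 1.62-fold lower, and Stab1, the gene of the scavenger receptor stabilin-1, was 1.33-fold lower. Lrp8, Scarb1, Dab2 and Stab2 did not pass, and Lrp2 and Vldlr had at most 17 counts in any library. A gene passed when its Benjamini-Hochberg adjusted p, over the 13804 features that edgeR's quasi-likelihood test covered, was under 0.05. Of all tested features, 20.5% rose and 19.2% fell, or 39.7% in either direction, so a count of 4 among 8 tested genes is near the background. The median log2 ratio was 0.09 over the 8 tested genes and 0.00 over all tested features. Once each library's trend with gene length was taken out, 1 of the 8 rose and 3 fell, and without repletion replicate 3 the count was 2, with 1 in each direction. Changes are given below as the fitted log2 ratio of repletion to control (the log2 fold change) with its standard error (SE).

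Levels can be compared between genes only per length, and are given here as CPM scaled by TMM factors per kilobase of the deposited gene length. Dab2 stood highest in control at 59.2 ± 1.73 (SD, n = 3). Lrpap1, Lrp1 and Lrp8 followed at 12.5 ± 2.05, 11.6 ± 2.39 and 11.1 ± 0.455, and these neighbours overlapped in their sample values. Stab1 at 7.69 ± 0.892 and Scarb1 at 4.97 ± 0.482 came next, each without overlap with the gene before it. The place of Scarb1 depends on the length used. Its deposited length is 8500 bases, while its longest annotated coding transcript has 2521, and levels per transcript length were not computed. Cubn at 0.235 ± 0.0275 was a low transcript, and Stab2, Vldlr and Lrp2 were at 0.0575 ± 0.0253, 0.0244 ± 0.0189 and 0.00599 ± 0.00378, overlapping one another in that order. In the repletion group Dab2 was again first at 67.8 ± 8.49, but Lrp1 at 15.8 ± 0.965 and Lrp8 at 11.1 ± 1.60 now lay above Lrpap1 at 7.68 ± 1.32, without overlap between Lrp8 and Lrpap1, and Lrpap1 overlapped with Stab1 at 5.80 ± 0.915. The order of the remaining genes was as in control.

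**Figure D1:**
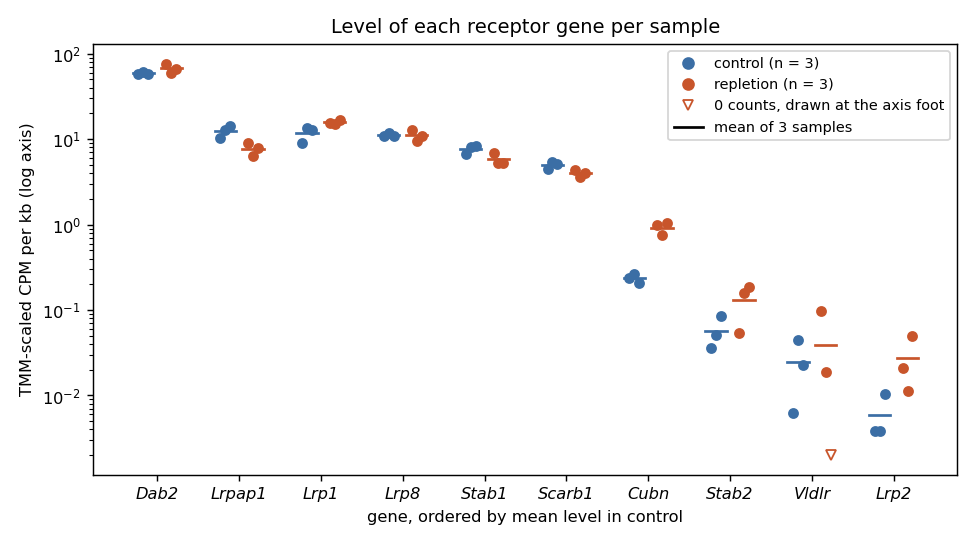
TMM-scaled CPM per kilobase (log axis) of the 10 genes in each sample, ordered by mean level in control, with blue points for control, orange points for repletion, lines for means of 3 samples and an open triangle for a library with 0 counts. Cubn lies higher in all 3 repletion samples, Lrpap1 lies lower in all 3, and the levels of the 10 genes span from 59.2 for Dab2 to 0.00599 for Lrp2 in control.

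The LDL receptor family proper was represented by Lrp1, Lrp2, Lrp8 and Vldlr. Lrp1 (ENSMUSG00000040249, chromosome 10, 127538161 to 127621148 on the minus strand in GRCm38) encodes a receptor for apolipoprotein E, protease-inhibitor complexes and matrix proteins. It had 158, 237 and 224 CPM in control replicates 1, 2 and 3 and 277, 264 and 298 in repletion. All 3 repletion samples lay above all 3 control samples, which holds for 25.0% of all tested features in that direction, for 25.4% in the other and for 50.3% in all, and control replicate 1 was the lowest. The log2 ratio was 0.44 ± 0.13 (SE; edgeR adjusted p = 0.0125). Leaving out control replicate 1 ended the call (0.26, adjusted p = 0.0783), as did leaving out repletion replicate 3 (0.39, adjusted p = 0.0700).

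The Lrp1 transcript is long, with a deposited length of 17717 bases and 89 exons in its longest annotated coding transcript. Gene length moved with the comparison over the whole table: features of at least 8000 bases had a median log2 ratio of 0.23, and 48.5% of them passed, 37.7% rising and 10.8% falling, whereas features under 2000 bases had a median of -0.14. Once both length and GC trends were taken out of each library, the Lrp1 log2 ratio was 0.06 ± 0.09 (SE; adjusted p = 0.617), and over the 17 alternatives fitted for Lrp1 the adjusted p ran from 0.00269 to 0.688. Of the 10 genes, Dab2 at 7342 bases and Lrpap1 at 4116 are under 8000 bases.

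Lrp8 (ENSMUSG00000028613, chromosome 4, 107802261 to 107876840, plus strand), which encodes the apolipoprotein E and reelin receptor ApoER2, had 116, 122 and 113 CPM in control and 134, 100 and 115 in repletion. The groups overlapped, with repletion replicate 1 the highest and repletion replicate 2 the lowest. No change was called (log2 ratio -0.01 ± 0.11 SE, adjusted p = 0.956), nor once both trends were taken out (-0.26 ± 0.10, adjusted p = 0.0550). Vldlr, the gene of the related VLDL receptor, had 1, 7 and 4 counts in control and 17, 3 and 0 in repletion. A count of 0 allows up to 3 counts, which is 0.180 CPM in that library. Lrp2, the gene of megalin, the receptor that works with cubilin in the proximal tubule, had 1, 1 and 3 counts in control and 6, 3 and 14 in repletion. Both were removed by the filter on low counts. Fitted without that filter, Lrp2 had a log2 ratio of 2.07 ± 1.30 (SE; adjusted p = 0.293) and Vldlr 0.62 ± 1.14 (adjusted p = 0.731).

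Cubn (ENSMUSG00000026726, chromosome 2, 13276338 to 13491813, minus strand) changed by the largest factor among the 8 tested genes. Cubilin binds intrinsic factor with vitamin B12, albumin and other carrier proteins, has no membrane-spanning segment and depends on partner proteins for its uptake. It had 55, 62 and 54 counts in control and 251, 179 and 259 in repletion, that is 3.50, 3.93 and 3.11 CPM against 14.6, 11.3 and 15.5. The groups stood well apart, with the lowest repletion sample far above the highest control sample. This gave a log2 ratio of 1.97 ± 0.22 (SE; adjusted p = 4.2e-06), which was 1.63 ± 0.21 (adjusted p = 3.9e-05) once both trends were taken out. Cubn passed under each of its 17 alternatives, with log2 ratios between 1.63 and 2.09. A rise of at least 2-fold was called for 7.53% of all tested features and for 9.41% of those of at least 8000 bases. Among 832 tested protein-coding genes at a control mean of 2 to 5 CPM, near that of Cubn, it was called for 12.7%, and 28.4% of these passed in all, 20.0% rising and 8.41% falling.

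Partners and markers of the tubule were read beside Cubn, since TCMK-1 cells are of tubular origin. Amn, the gene of amnionless, the membrane partner of cubilin, had 3, 0 and 0 counts in control and 9, 1 and 13 in repletion, and was too low to be tested. Of the 19 tubular markers, 5 were tested, 0 rose and 1 fell, where 39.7% of all tested features were called. The summed level of the 19 was 149.8 to 219 CPM in control and 124 to 165 in repletion. Lcn2, which is also an acute-phase gene, made up most of it, and without Lcn2 the sum was 14.1 to 17.6 CPM in control and 15.3 to 20.4 in repletion. Among the other tested markers, Aqp1 averaged 7.82 CPM in control and 7.86 in repletion, Pax2 5.88 and 6.49, and Pax8 0.899 and 1.27. Krt19 averaged 0.866 CPM in control and 1.92 in repletion and did not pass (edgeR adjusted p = 0.0737). Gm13270, a non-coding feature on the opposite strand that overlaps the Cubn locus over 49490 bases, had 0 to 12 counts. The part of tubular RNA in the Cubn values was not tested beyond these counts.

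The scavenger receptors were Scarb1, Stab1 and Stab2. Stab1 (ENSMUSG00000042286, chromosome 14, 31139013 to 31168641, minus strand) encodes stabilin-1, a receptor of sinusoidal and other endothelial cells and of macrophages. It had 68.6, 83.9 and 85.0 CPM in control and 70.6, 54.6 and 53.9 in repletion. The groups overlapped, because repletion replicate 1 lay just above control replicate 1. The fall (log2 ratio -0.41 ± 0.13 SE, adjusted p = 0.0193) was no longer called when any of 4 libraries was left out: control replicate 2 (adjusted p = 0.0661), control replicate 3 (0.0831), repletion replicate 2 (0.0547) and repletion replicate 3 (0.101). Scaling by library size alone put it at the threshold, and not past it. With both trends taken out the log2 ratio was -0.63 ± 0.11 (adjusted p = 3.5e-04, the lowest of its 17 alternatives, of which 0.101 was the highest). Stab1 overlaps Nt5dc2, on the opposite strand, over 112 bases, and Nt5dc2 had a log2 ratio of -0.16 (adjusted p = 0.369).

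Macrophages also express Stab1, so their markers were read beside it. Of 12 leukocyte and macrophage markers, 5 had at most 3 counts in every library, and Itgam, Fcgr3 and Cd3e had 0. Of the 3 tested 0 rose and 1 fell, where 39.7% of all tested features were called. The summed level of the 12 was 379 to 417 CPM in control and 223 to 312 in repletion. Nearly all of it came from Cd68, a gene of a lysosomal membrane protein, which was the marker that fell (log2 ratio -0.63). Without Cd68 the sum was 5.44 to 9.99 CPM in control and 5.68 to 6.80 in repletion. The part of such cells in the Stab1 values was not tested.

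Stab2, the gene of stabilin-2, the hyaluronan receptor of sinusoidal endothelium, was near the limit of detection. It had 5, 7 and 13 counts in control and 8, 22 and 27 in repletion, and the groups overlapped. The log2 ratio of 1.17 ± 0.63 (SE) did not pass (adjusted p = 0.150), and 1 control library and 2 repletion libraries reached the level that the filter asks for. Of 8 lymphatic and sinusoidal markers, 3 rose and 1 fell among 4 tested, where 39.7% of all tested features were called. Lyve1, Flt4 and Reln rose, and Pdpn fell (log2 ratio -1.54). Prox1 was too low to be tested, and Ccl21a, Clec4g and Mmrn1 had 0 counts throughout. The summed level of the 8 was 78.2 to 102.7 CPM in control and 123 to 138 in repletion, most of it from Flt4. Without Flt4 the sum was 15.5 to 23.7 CPM in control and 29.6 to 34.5 in repletion. The part of such cells in the Stab2 values was not tested.

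Scarb1 (ENSMUSG00000037936, chromosome 5, 125277087 to 125341094, minus strand) encodes SR-BI, the high-density lipoprotein receptor, which also carries lipoproteins across endothelium. It had 37.7, 45.6 and 43.5 CPM in control and 37.4, 30.5 and 34.2 in repletion. The groups did not overlap, but control replicate 1 and repletion replicate 1 were almost level. At a log2 ratio of -0.31 ± 0.13 (SE) it did not pass (adjusted p = 0.0688, and 0.00373 to 0.188 over 17 alternatives). It did pass when control replicate 1 (adjusted p = 0.0374) or repletion replicate 1 (0.0346) was left out, and once both trends were taken out (-0.49 ± 0.12, adjusted p = 0.00373). The length trend was taken at the deposited 8500 bases, while the longest coding transcript of Scarb1 has 2521. A fit with the shorter length was not run.

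The remaining genes encode an adaptor and a chaperone. Dab2 (ENSMUSG00000022150, chromosome 15, 6299788 to 6440712, plus strand), the clathrin adaptor that sorts LDL receptor family members, had 427, 449 and 427 CPM in control and 563, 439 and 493 in repletion. Repletion replicates 1 and 3 lay above all control samples and repletion replicate 2 lay among them. The difference (log2 ratio 0.20 ± 0.11 SE, adjusted p = 0.149) was 0.07 ± 0.10 (adjusted p = 0.624) once both trends were taken out. Leaving out repletion replicate 2 brought it past the threshold (0.27, adjusted p = 0.0433), and its other alternatives reached up to 0.696.

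Lrpap1 (ENSMUSG00000029103, chromosome 5, 35091501 to 35105766, minus strand) had 42.2, 53.0 and 58.8 CPM in control and 36.8, 25.9 and 32.1 in repletion. The groups did not overlap. Lrpap1 fell (log2 ratio -0.70 ± 0.15 SE, adjusted p = 0.00158), also once both trends were taken out (-0.63 ± 0.14, adjusted p = 0.00196). Each of its 17 alternatives passed, with adjusted p between 2.5e-06 and 0.0139. The ratio of Lrp1 to Lrpap1, both per deposited length, was 0.870, 1.04 and 0.886 in control and 1.75, 2.36 and 2.15 in repletion. This ratio of a long to a shorter gene includes the length trend described for Lrp1.

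**Figure D2:**
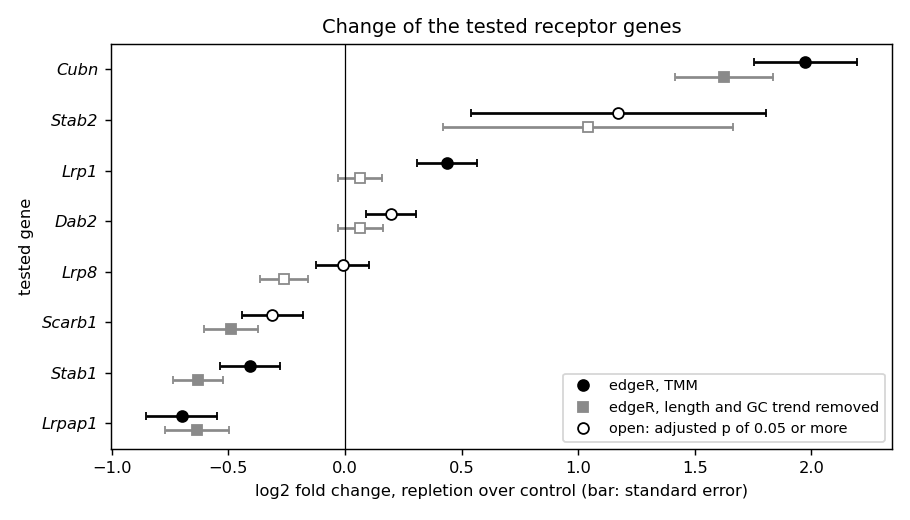
Log2 ratio (repletion over control) of the 8 tested genes with standard errors, from edgeR with TMM scaling and again with each library's length and GC trends taken out, with filled symbols where the adjusted p was under 0.05. Cubn goes from 1.97 to 1.63, Lrpap1 from -0.70 to -0.63, Lrp1 goes from 0.44 to 0.06, and Stab1 and Scarb1 move lower, to -0.63 and -0.49.

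**Figure D3:**
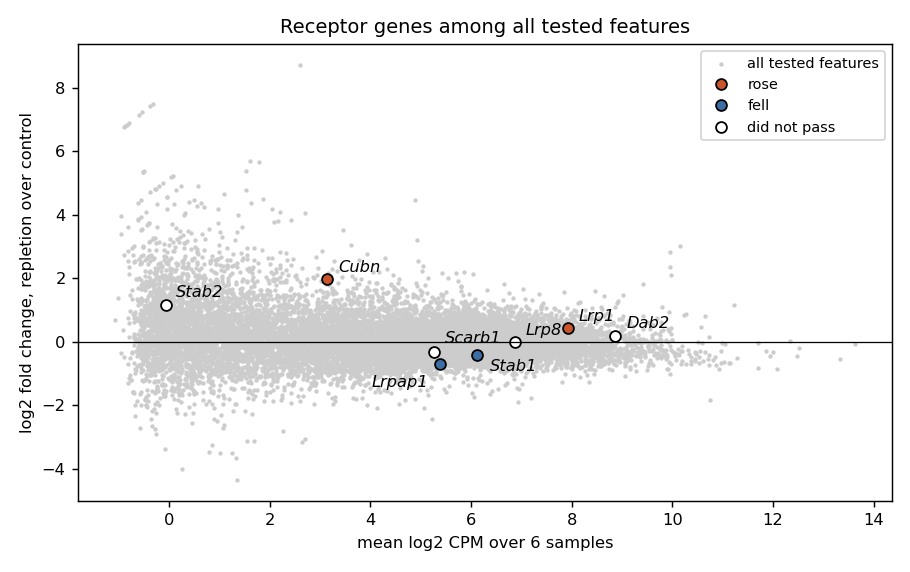
Log2 ratio against mean log2 CPM over 6 samples for all 13804 tested features in grey, with the 8 tested receptor genes in orange where they rose, blue where they fell and white where they did not pass. Cubn at 1.97 lies above most features of like abundance, and the other genes that passed lie within the grey cloud.

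RefSeq promoter windows on GRCm38.p6, from 250 bases before to 50 after the start, were matched by symbol for 9 of the 10 genes, with 13 windows in all. Both strands were searched for 11 motifs, and capitals mark matches, written as the gene's strand reads where the motif lies on the other strand (both matches in Lrp1). The windows of the 4 genes that passed are printed, 5′ to 3′ on the gene's strand, to set the gene that rose most beside the gene that fell most.
Cubn, chr2:13491827-13492126, minus strand: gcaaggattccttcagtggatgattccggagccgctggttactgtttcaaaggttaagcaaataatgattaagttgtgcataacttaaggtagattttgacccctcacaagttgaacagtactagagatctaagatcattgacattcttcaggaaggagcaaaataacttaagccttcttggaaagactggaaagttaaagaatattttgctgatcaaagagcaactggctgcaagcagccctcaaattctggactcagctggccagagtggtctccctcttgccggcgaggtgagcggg
Lrp1, chr10:127621099-127621398, minus strand: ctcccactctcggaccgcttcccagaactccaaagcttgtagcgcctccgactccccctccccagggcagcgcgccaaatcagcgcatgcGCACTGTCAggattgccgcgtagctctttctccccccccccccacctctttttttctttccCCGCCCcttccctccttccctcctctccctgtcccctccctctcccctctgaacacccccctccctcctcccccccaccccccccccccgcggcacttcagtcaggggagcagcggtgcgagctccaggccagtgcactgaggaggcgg
Stab1, chr14:31168592-31168891, minus strand: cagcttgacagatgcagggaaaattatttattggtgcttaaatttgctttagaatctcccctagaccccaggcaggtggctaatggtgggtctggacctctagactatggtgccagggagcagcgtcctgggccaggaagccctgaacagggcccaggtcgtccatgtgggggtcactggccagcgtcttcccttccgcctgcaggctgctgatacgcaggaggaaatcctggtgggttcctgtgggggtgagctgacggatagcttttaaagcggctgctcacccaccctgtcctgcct
Lrpap1, chr5:35105650-35105949, minus strand: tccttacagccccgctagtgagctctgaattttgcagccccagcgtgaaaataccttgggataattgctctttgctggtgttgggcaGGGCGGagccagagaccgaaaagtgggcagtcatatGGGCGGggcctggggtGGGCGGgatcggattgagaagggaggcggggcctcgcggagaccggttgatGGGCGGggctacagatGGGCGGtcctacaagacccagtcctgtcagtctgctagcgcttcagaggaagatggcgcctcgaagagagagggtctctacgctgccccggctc
The Cubn window had a GC content of 44.3% and the Stab1 window 57.3%, and neither held a match. The Lrpap1 window had 61.3% GC and 5 matches to the GC box GGGCGG, between 163 and 39 bases before the start. The Lrp1 window had 67.7% GC, with 1 GC box 99 to 94 bases before the start and 1 match to the antioxidant response element TGACNNNGC, which began 160 bases before it. No 2 of these matches overlapped.

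Of all 32841 windows of the same length, whose median GC content was 52.7%, 35.7% held GGGCGG and 12.4% held TGACNNNGC. The other motifs were the sterol regulatory element (0.091% of windows), the E-box CACGTG (7.15%), the AP-1 site TGANTCA (7.81%), the ETS site CCGGAAG (8.86%), the TATA box TATAAA (13.6%), the CRE TGACGTCA (1.79%), the TEAD site GGAATG (14.7%), the nuclear receptor direct repeat DR1 (0.040%) and the NF-kB site (1.63%). A match describes these letters only.

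Other genes of the pathway were read from 4 lists. Of their 85 genes in the table, 52 were tested, and 18 rose and 9 fell in edgeR's quasi-likelihood test, against 20.5% and 19.2% of all tested features. Their median log2 ratio was 0.17. With library size as the only scaling 21 rose and 4 fell. The filter on low counts also lets in genes that reach its level only in repletion, and these stay in the counts. A minimum of 1 CPM in 3 samples can also be met by the repletion samples alone. With it 47 were tested, and 16 rose and 9 fell. Of the 27 called first, 13 stayed past the threshold in the same direction under every alternative fitted for them, 10 higher and 3 lower. The like share over all tested features was not computed, so neither this count nor its split has a background to be read against.

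Among other LDL receptor family genes and their relatives, 3 of 8 tested rose and 2 fell, where 39.7% of all tested features were called. The list median was 0.11. Lrp5 and Lrp6, genes of Wnt co-receptors that resemble LDL receptors, rose by 0.83 and 0.58, but the log2 ratio of Lrp6 was 0.26 once both trends were taken out, and it did not pass with the length trend removed beside a block for the replicate number (adjusted p = 0.0838). Lrp11 fell by 0.59 and Ldlrad3 fell by 0.62.

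Among other scavenger and endocytic receptors, 13 of 20 were too low to be tested, including Cd36, Msr1, Marco and Olr1, which are receptors for modified lipoproteins and polyanions. Of the 7 tested, 3 rose and 1 fell, where 39.7% of all tested features were called. The list median was 0.24. The count of 4 was 1 without control replicate 3 or without repletion replicate 3 and 2 with the length trend removed. Cd93, the gene of a C-type lectin-like receptor of endothelium, rose from 49.0 ± 5.94 CPM to 91.5 ± 6.05 (SD, n = 3), or 0.90 ± 0.12 (SE) as a log2 ratio (adjusted p = 2.1e-05). Scarb2, which encodes a lysosomal membrane protein related to SR-BI, fell by 0.32 (adjusted p = 0.0187). That call was lost when control replicate 3 (adjusted p = 0.0599) or repletion replicate 3 (0.0613) was left out, or when libraries were scaled by size alone (0.0510), and its lowest adjusted p was 0.00215.

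Among 19 tested adaptors, chaperones and regulators, 4 rose and 2 fell, where 20.5% and 19.2% of all tested features did so. The list median was 0.15. With a minimum of 1 CPM in 3 samples, 17 were tested, and 2 rose and 2 fell. Gulp1, the gene of an adaptor that binds LRP1 and the stabilins, had 767, 603 and 669 counts in control and 904, 1441 and 1207 in repletion. All 3 repletion samples were higher (log2 ratio 0.78 ± 0.16 SE, adjusted p = 0.00125). Dab1, the adaptor gene of the reelin pathway, had 0, 2 and 10 counts in control and 16, 15 and 20 in repletion, and its call (adjusted p = 0.0473) was lost under 10 alternatives, with adjusted p up to 0.177. No control library reached the level that the filter on low counts asks for, so Dab1 was tested through the repletion group alone. Ap2m1, the gene of the AP-2 subunit that binds sorting signals in receptor tails, fell by 0.36 ± 0.10 (SE; adjusted p = 0.00685).

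Of 18 tested ligands of the family, 8 rose and 4 fell, where 20.5% and 19.2% of all tested features did so. The list median was 0.30, and the count of 12 was 7 without control replicate 3. This list, like the others, was chosen with earlier results of these data known. Thbs1, the gene of thrombospondin 1, which LRP1 internalises, had 4869, 4842 and 5064 counts in control and 16966, 16822 and 19432 in repletion (log2 ratio 1.82 ± 0.10 SE, adjusted p = 3.8e-09). Reln, the gene of reelin, the ligand of the Lrp8 and Vldlr products, had 18, 24 and 16 counts in control and 77, 113 and 136 in repletion. No repletion sample came near the control samples (log2 ratio 2.46 ± 0.35 SE, adjusted p = 3.9e-05). Apoe, the gene of apolipoprotein E, had 12, 10 and 17 counts in control and 48, 35 and 44 in repletion (log2 ratio 1.67 ± 0.46 SE, adjusted p = 0.00784). Both Reln and Apoe passed under each of their 17 alternatives. Under the minimum of 1 CPM in 3 samples, however, Apoe was below 1 CPM in every control library, so repletion alone let it in. Reln was below it in control replicate 3. Calr, the gene of calreticulin, which binds LRP1 at the cell surface, fell by 0.31 (adjusted p = 0.0192). Leaving out control replicate 3 ended that call (adjusted p = 0.0907), as did taking out the length trend alone (log2 ratio -0.24, adjusted p = 0.0576, or 0.120 when replicate number was also blocked). With both length and GC trends taken out Calr still passed, just under the threshold (-0.22, adjusted p = 0.0498), and its lowest adjusted p was 0.00803.

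**Figure D4:**
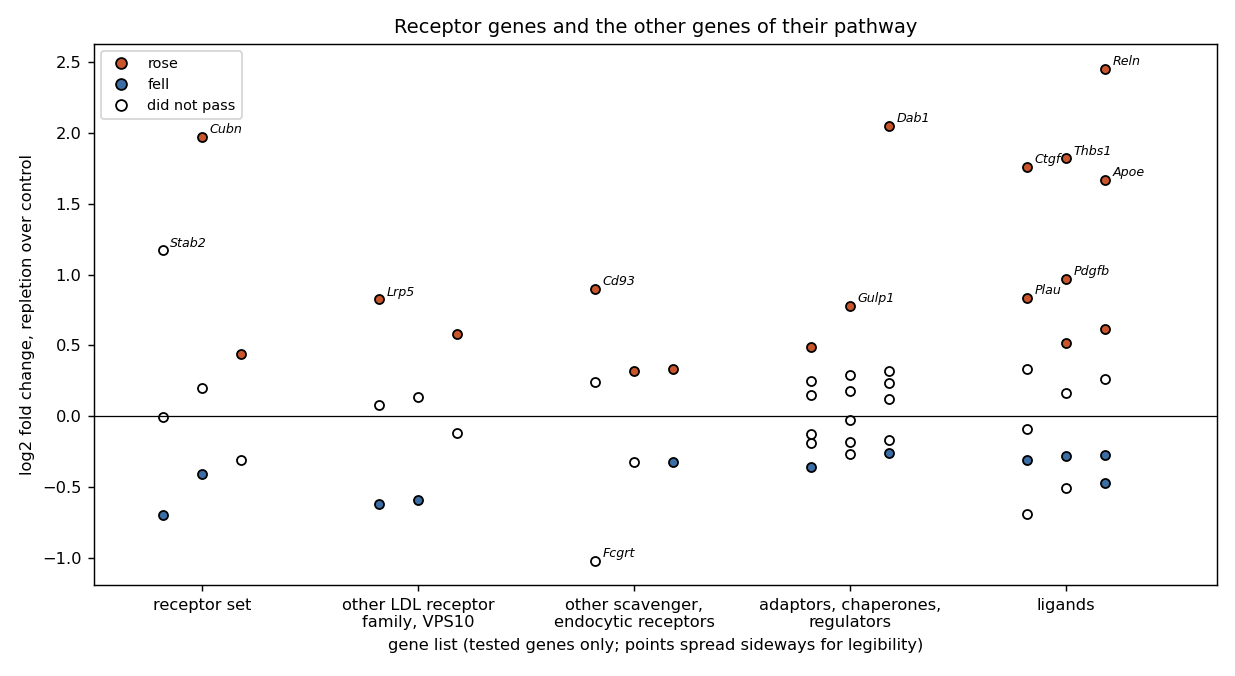
Log2 ratio (repletion over control) of tested genes in the receptor set (8 genes) and the 4 lists of related genes (50 of the 52 tested), with orange points for genes that rose, blue for genes that fell and white for genes that did not pass. Reln, Thbs1, Ctgf and Apoe stand highest among the ligands, and Lrp5 at 0.83 and Cd93 at 0.90 stand highest of the genes drawn in their lists.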

How the data were processed

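The 6 samples of mouse pulmonary microvascular endothelial cells fell, by their titles, into 2 groups of 3. Per the submitters' processing notes, the tools and build were HISAT2 2.0.5, featureCounts 1.5.0-p3, DESeq2 1.20.0 and GRCm38.p6. No source used here gives the strand setting, and without it a gene cannot be separated from an antisense partner. All tests ran on the raw counts that the authors deposited. The FPKM values, scaled group means (a signal), log2 fold changes and p-values that the authors deposited beside them were not used.

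In edgeR 4.0.16 (R 4.3.3), filterByExpr with a count minimum of 10 left 13804 features and removed 41428. TMM scaling, glmQLFit and glmQLFTest followed (two-sided, Benjamini-Hochberg, 0.05), with the SE taken from the F statistic. CPM are TMM-scaled, except summed markers, which use library totals. Alternatives used DESeq2 1.42.0, limma 3.58.1 (voom), other scalings and filters, a replicate block, each library left out, and removal of per-library spline trends (5 degrees of freedom) with deposited length and with the GC content of GENCODE M21 transcripts, known for 98.3% of tested features. The scripts were tested on simulated data. By BLAST 2.17.0, no other gene shared over 211 bases at 95% identity with any of the 10. Replicates differed beyond counting noise (chi-square per feature 8.56 to 23.3). The naming rule took the 10 genes and each list's smallest-p gene in each direction, and some genes of the lists, though counted, are not reported here. Further genes named were picked with their values known. The 10 genes and all lists were chosen with earlier results of these data known.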

Additional observations from a re-analysis of the deposited data

How the results depend on the processing

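Of the 8 tested receptor genes 4 passed, and 3 or 4 did so under the alternatives that kept all libraries, but 2 to 5 when 1 library was left out, with 2 without repletion replicate 3. The genes behind a like count were not always the same. In the edgeR fits with the trend of deposited length removed, Lrp1 was lost (adjusted p 0.617 to 0.688) and Scarb1 passed (0.00373 to 0.0202). The pathway lists gave 27 genes, 18 to 27 with 1 library left out, 30 without the filter and 19 with a replicate block and the length trend removed. With the replicate block alone 4 receptor genes and 24 list genes passed. The replicate numbers showed no sign of pairing, on which the labels are silent. Deviations of same-numbered samples from their group means correlated at -0.0757, -0.0331 and 0.0552, and those of the other pairs at -0.0568 to 0.0787. With 3 samples per group these values cannot exclude a paired design. Lrp8 turned direction with scaling by library size alone (0.0532), with a minimum of 1 CPM in 3 samples (0.0024), without control replicate 2 (0.004) and without repletion replicate 2 (0.0823), and leaving out 1 library gave log2 ratios from -0.1247 to 0.0823. Cubn, Lrpap1 and Stab2 kept their direction and their side of the threshold under every alternative fitted for them. The Lrp1 log2 ratio was 0.0641 to 0.0741 in the fits with the length trend removed. Stab2 was not fitted under the minimum of 1 CPM. Depth limits Lrp2, Vldlr and Stab2.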
